A study of Mus musculus with 18 samples.

Results

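The 10 genes described here encode the enzymes that methylate lysine 9 of histone H3 (H3K9), 2 of their cofactors, and the HP1 proteins that bind the methylated lysine. They were taken by name, through the Entrez identifier of each symbol, and not by a cutoff on any measured value. Earlier results of these data were known when they were chosen. All 10 were found among the 24100 genes of both count tables, and all 10 passed the filter on low counts in both. The writers and cofactors were Setdb1, Atf7ip, Trim28, Suv39h1, Suv39h2, Ehmt1 and Ehmt2, and the HP1 genes were Cbx5, Cbx1 and Cbx3.

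RNA was measured in C3H/10T1/2 cells, an established mouse line of mesenchymal progenitor cells, in 3 lines. The WT line had received Cas9 on a vector without a guide RNA, and the sg5 (clone G7) and sg6 (clone B10) lines were each 1 Atrx knockout clone, made with a different guide RNA. Each line gave 3 polyA-selected and 3 rRNA-depleted libraries, 18 in all, from cells grown without differentiation cues. A group is therefore a single line, so a p-value measures the spread between libraries of that line, which may be technical, and the guide, the clone and ATRX loss cannot be told apart within 1 comparison. The clones were compared with the same WT libraries.

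Methylation of H3K9 is the mark of silent, compact chromatin. SETDB1 writes trimethyl H3K9 at endogenous retroviruses and is brought there by TRIM28 (KAP1), which binds KRAB zinc finger proteins, while ATF7IP is the partner that keeps SETDB1 stable and nuclear. SUV39H1 and SUV39H2 write trimethyl H3K9 at the repeats beside centromeres, and EHMT1 (GLP) with EHMT2 (G9a) write mono- and dimethyl H3K9 across silent genes. The HP1 proteins, HP1α (Cbx5), HP1β (Cbx1) and HP1γ (Cbx3), hold a chromodomain that binds the methylated lysine and a second domain that binds partner proteins. ATRX, a chromatin remodeler that deposits histone H3.3 with DAXX, recognizes trimethyl H3K9 and binds HP1.

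The HP1 genes are the closest relatives in the set, so their coding sequences show whether reads can tell them apart. The 120 coding bases printed for each gene lie inside the chromodomain, run 5′ to 3′ on the coding strand across an exon junction, and were read from the GRCm38 (mm10) transcripts. Capitals mark the bases that differ from Cbx1, and the coordinates span the intron between the exons. Cbx1 is on the plus strand, chr11:96800865-96801465, exons 2 and 3. Cbx3 is on the plus strand, chr6:51475291-51478474, exons 3 and 4. Cbx5 is on the minus strand, chr15:103205642-103213154, exons 2 and 3.
Cbx1: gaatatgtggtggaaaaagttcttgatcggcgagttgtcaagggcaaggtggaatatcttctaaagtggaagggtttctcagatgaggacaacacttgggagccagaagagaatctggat
Cbx3: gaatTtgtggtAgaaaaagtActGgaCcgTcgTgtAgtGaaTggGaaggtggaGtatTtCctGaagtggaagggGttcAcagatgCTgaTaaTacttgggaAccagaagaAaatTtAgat
Cbx5: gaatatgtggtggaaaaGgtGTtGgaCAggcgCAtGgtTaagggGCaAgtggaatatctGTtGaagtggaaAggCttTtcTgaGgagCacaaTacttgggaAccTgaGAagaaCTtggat

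In this window Cbx3 differed from Cbx1 at 25 bases and Cbx5 at 29. Over the whole coding sequence, the pairs were 72.2% (Cbx1 and Cbx3), 72.3% (Cbx1 and Cbx5) and 72.4% (Cbx3 and Cbx5) identical over the aligned bases, with no identical run longer than 20 bases. No 31-base word was shared among the HP1 transcripts. Words of that length shared with any other annotated gene made up 2.26% of the Cbx1 transcript, 10.0% of Cbx3 and 0.698% of Cbx5. Among the other genes the share was highest for Suv39h1, at 14.4%, most of it with Gm14820, an antisense transcript, and for Setdb1, at 12.9%, most of it with the lincRNA Gm4349. On the opposite strand, Cbx1 overlaps Gm11517, Atf7ip overlaps Gm44140, Trim28 overlaps Zbtb45, Setdb1 overlaps Cers2, Gm37500 and Gm42578, and Suv39h2 overlaps Gm13184 and Dclre1c, with which it shares 5.64% of its 31-base words. On the same strand, Ehmt1 overlaps Gm37139 and Gm38147. The strand setting of the counting was not given in the sources used here, so reads from stretches that overlapping transcripts share cannot be told apart. The overlaps are those of whole genes, introns included. Words shared with any other gene made up 0.0358% of the Ehmt1 transcripts, 0.559% of Trim28 and 1.79% of Atf7ip.

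The deposited counts of a polyA library summed to between 27544833 and 80772108 for WT, between 161036799 and 235346363 for sg5, and between 58918732 and 71896907 for sg6. The sums of the rRNA-depleted libraries lay between 20135336 and 33187136. The smallest count of any of the 10 genes in a library was 207 for polyA and 225 for rRNA-depleted. Atrx, the targeted gene, was lower in every knockout library: in polyA, 276, 297 and 328 CPM (counts per 1000000 counts of the library) in WT against 114 to 138 in sg5 and 122 to 141 in sg6. Its log2 fold change was −1.24 (SE 0.10, edgeR adjusted p = 5.04e-05) in sg5 and −1.20 (SE 0.10, adjusted p = 5.15e-05) in sg6. The polyA sum of 10 mesenchymal markers was lowest in WT (20389 to 23282 CPM) and highest in sg6 (27901 to 30695 CPM). For sg5 it overlapped WT, at 23168 to 23701 CPM. Of the 10, 1 passed as higher and 3 as lower in sg5 in polyA, against 6 and 2 for sg6. Pdgfra and Twist2 were lower and Pdgfrb higher in both clones. The part of these 10 markers in the results was not tested. The polyA sum of 11 markers of epithelium, leukocytes, endothelium and neurons ranged from 11.4 to 14.0 CPM over the WT libraries. It was lower in the knockouts, at 8.58 to 9.21 CPM for sg5 and 7.84 to 8.82 CPM for sg6. Of these markers, Cdh1 and Pecam1 passed as lower in both clones in polyA, as did Cdh1 in rRNA-depleted libraries, and their part in the results was not tested. In single libraries, Tubb3 reached 8.01 CPM (rRNA-depleted), and Cd68 reached 5.09 and Cdh1 4.82 CPM (both polyA). Csf1r, at 0.577 CPM (rRNA-depleted), was the highest of the rest. The highest level of Epcam, Krt5, Rbfox3 and Ptprc in any library was 0.115 CPM, where Krt5 has a value in polyA alone. The mesenchymal marker Thy1 was nearly absent from WT and sg5 (at most 1.098 CPM in polyA) and present in sg6 (119 to 154 CPM).

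**Figure D1:**
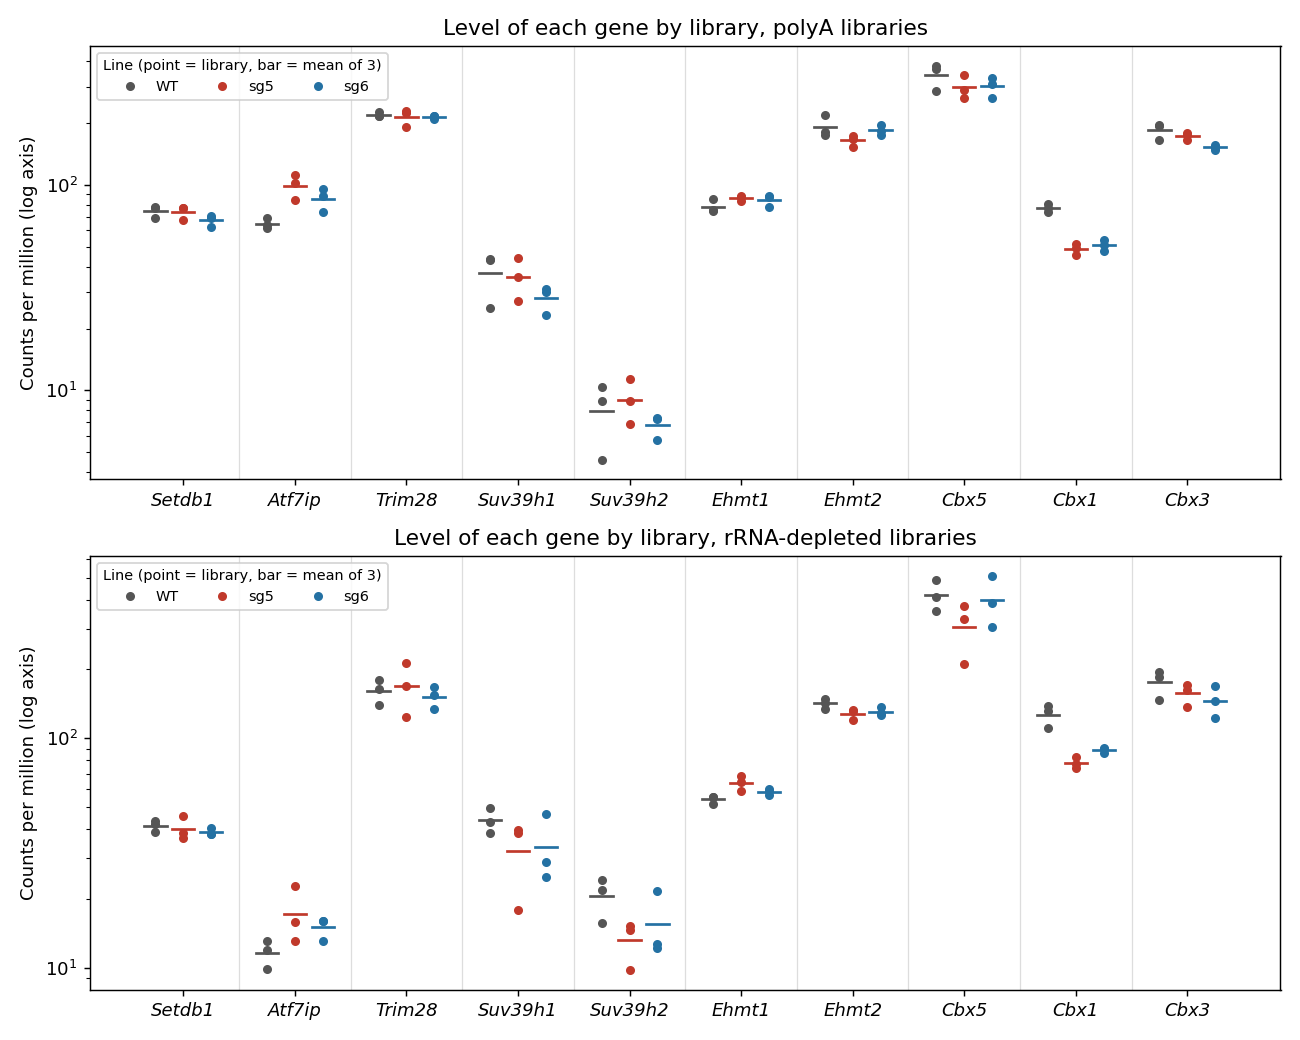
Level of each of the 10 genes in CPM (log axis) in the polyA (top) and rRNA-depleted (bottom) libraries. Each point is a library, each bar the mean of 3 libraries, and colors mark WT, sg5 and sg6. The Cbx1 points of both clones lie below those of WT in both panels, and the Atf7ip points lie above them.

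To compare levels between genes, CPM were divided by the length of the longest coding transcript. In WT polyA libraries, Cbx3 was the most abundant message per kb, at 97.7 ± 9.20 CPM per kb (SD, n = 3). It was followed by Trim28 at 67.6 ± 1.497, Ehmt2 at 47.4 ± 5.83, Cbx5 at 39.0 ± 5.72 and Cbx1 at 32.4 ± 1.49 CPM per kb. Setdb1 (16.02 ± 1.06), Ehmt1 (13.1 ± 0.991), Suv39h1 (12.0 ± 3.35) and Atf7ip (8.04 ± 0.475) formed a lower group, and Suv39h2 was lowest at 1.84 ± 0.698 CPM per kb. Neighbors in this order whose WT libraries overlapped were Cbx5 and Cbx1, Ehmt1 and Suv39h1, and Suv39h1 and Atf7ip. The WT rRNA-depleted libraries also had Cbx3 highest, at 92.5 ± 13.4 CPM per kb. There Cbx1 (53.2 ± 6.08), Trim28 (49.5 ± 6.26) and Cbx5 (47.6 ± 7.44) overlapped in order, and Atf7ip, at 1.44 ± 0.202, was below Suv39h2, at 4.74 ± 1.004 CPM per kb. The order depends on the division by length. In CPM alone, Cbx5 was highest in WT, at 343 in polyA and 419 in rRNA-depleted libraries, with Cbx3 at 185 and 175. The kinds of library were counted by different methods, so their levels were not tested against each other.

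In sg5 versus WT, 2 of the 10 genes passed the test in polyA (edgeR quasi-likelihood test, Benjamini-Hochberg adjusted p below 0.05 over all 15480 genes tested), Cbx1 lower and Atf7ip higher, where 27% of all genes passed. In sg6 versus WT, 3 passed, Cbx1 and Cbx3 lower and Atf7ip higher, against 30.7% of all genes. Cbx1 and Atf7ip passed in both clones in the same direction, 20% of the set against 20.2% of all genes. In the rRNA-depleted libraries, where p-values were adjusted over 56086 genes and transposable element (TE) loci, Cbx1 alone passed in sg5, against 10.7% of genes. None passed in sg6, against 7.58% of genes, and 1 of 10 had an unadjusted p below 0.05, so that none passed in both clones, against 5.21% of genes. DESeq2 also called none of them in sg6. Thus the count of changed genes in the set was close to that among all genes in polyA, and it is no result about the set. No gene of the set moved beyond 2-fold in a call of any comparison, where 10.1% (sg5) and 11.2% (sg6) of all genes in polyA and 7.35% and 5.75% of genes in rRNA-depleted libraries did.

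The median log2 fold change over the set in polyA was −0.05 in sg5 and −0.17 in sg6, beside medians of −0.0024 and −0.0057 over all genes. For rRNA-depleted libraries it was −0.15 in sg5 and −0.11 in sg6, beside 0.08 and 0.04. Libraries of the clone and of WT did not overlap for 3 (sg5) and 4 (sg6) of the 10 genes in polyA, against 41.5% and 42.4% of all genes, and for 5 and 3 in rRNA-depleted libraries, against 36.3% and 31.3%.

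**Figure D2:**
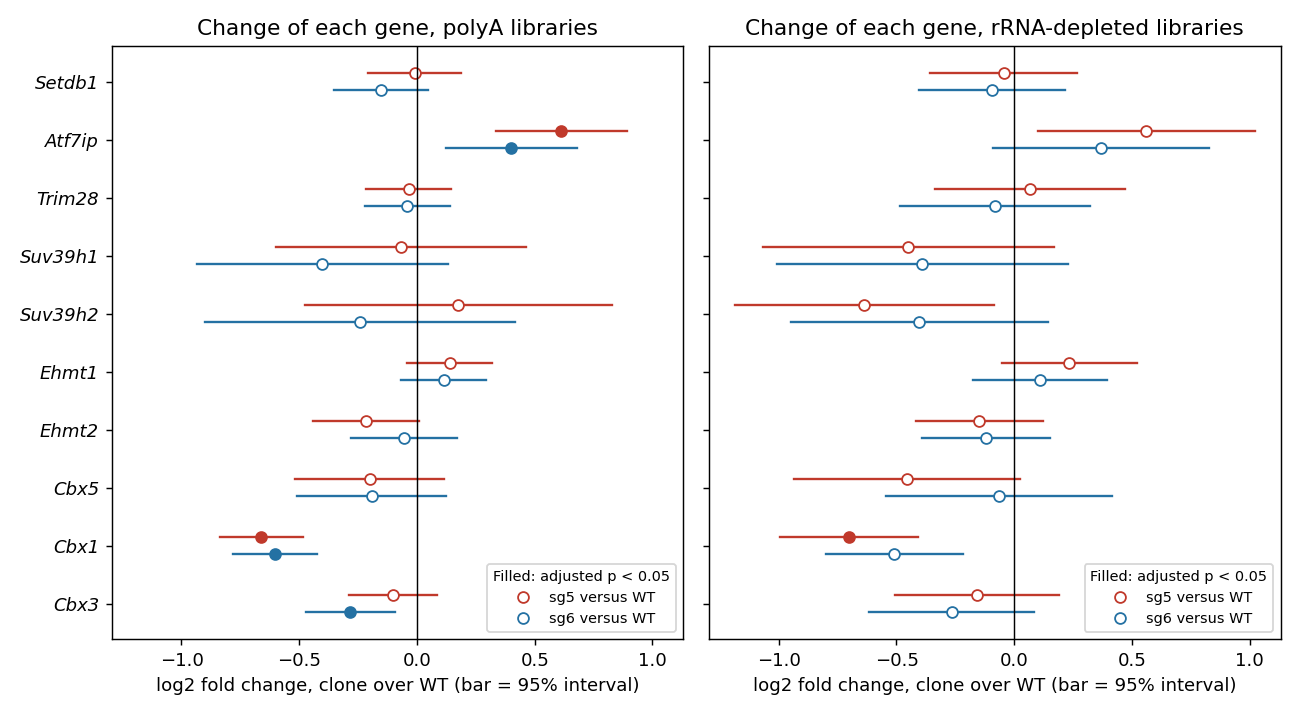
Log2 fold change of each gene in sg5 and sg6 over WT, with its 95% interval, in polyA (left) and rRNA-depleted (right) libraries. Filled points passed an adjusted p of 0.05. Filled points are Cbx1 and Atf7ip in both clones and Cbx3 in sg6 for polyA, and Cbx1 in sg5 for rRNA-depleted libraries.

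Cbx1, which encodes HP1β, was lower than in WT in both clones, at 0.615 to 0.703 of the WT level over the 4 comparisons. In polyA it measured 73.3, 77.5 and 80.4 CPM in WT, 45.6, 51.3 and 49.4 in sg5, and 47.5, 53.7 and 51.0 in sg6. All knockout libraries were below all WT libraries, and the clones overlapped each other. In bulk RNA, fewer cells that express a gene and less RNA of it per cell cannot be told apart. The log2 fold change was −0.66 (SE 0.08, adjusted p = 0.000375) in sg5 and −0.60 (SE 0.08, adjusted p = 0.000559) in sg6, that is 0.632 and 0.658 of the WT level. Leaving out any 1 of the 9 libraries kept both calls, with values from −0.70 to −0.62 in sg5 and −0.65 to −0.57 in sg6.

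The rRNA-depleted libraries gave Cbx1 levels of 138, 131 and 110 CPM in WT, 73.9, 76.8 and 82.8 in sg5, and 90.9, 89.8 and 86.0 in sg6. Again no knockout library reached the lowest WT library. In sg5 the log2 fold change was −0.70 (SE 0.14, adjusted p = 0.00965). This call was lost without WT replicate 1 (adjusted p = 0.0805), WT replicate 2 (0.101), sg5 replicate 1 (0.0625), sg5 replicate 2 (0.107), sg5 replicate 3 (0.0569) or sg6 replicate 3 (0.0514), where the fold change stayed between −0.73 and −0.58. In sg6 it was −0.51 (SE 0.14, 95% interval −0.80 to −0.22, adjusted p = 0.0695). Adjusting over genes alone, without TE loci, took the sg6 value past the threshold, at −0.54 (adjusted p = 0.00727). So did no filter on low counts (also without TE loci), 10 counts in every library and the replicate block (−0.51, adjusted p = 0.0350). The difference between sg5 and sg6 passed in neither kind of library.

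Cbx1 lies on chromosome 11 (chr11:96789127-96808640 in mm10, plus strand, 5 exons in its longest coding transcript), and genes of that chromosome were lower as a whole. The median log2 fold change of tested genes on chromosome 11 was −0.26 in sg5 and −0.16 in sg6 for polyA, and −0.26 and −0.07 for rRNA-depleted libraries. Among the 20 tested genes nearest to Cbx1, 10 on each side, the polyA median was −0.40 in sg5, with 8 called lower and 1 higher, and −0.24 in sg6, with 5 called lower. Relative to the chromosome median, Cbx1 was at −0.41 in sg5 and −0.44 in sg6, and relative to its 20 neighbors at −0.26 and −0.37. The rRNA-depleted values relative to neighbors were −0.30 and −0.28. In all 4 comparisons Cbx1 was below the median of its chromosome and that of its neighbors, by less than it was below WT. Of the 20 neighbors, 14 (polyA, either clone), 15 (rRNA-depleted, sg5) and 17 (rRNA-depleted, sg6) had a higher log2 fold change than Cbx1. In the same order, 6, 5 and 3 neighbors had a lower one. The part of the chromosome in the Cbx1 result was not tested.

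**Figure D3:**
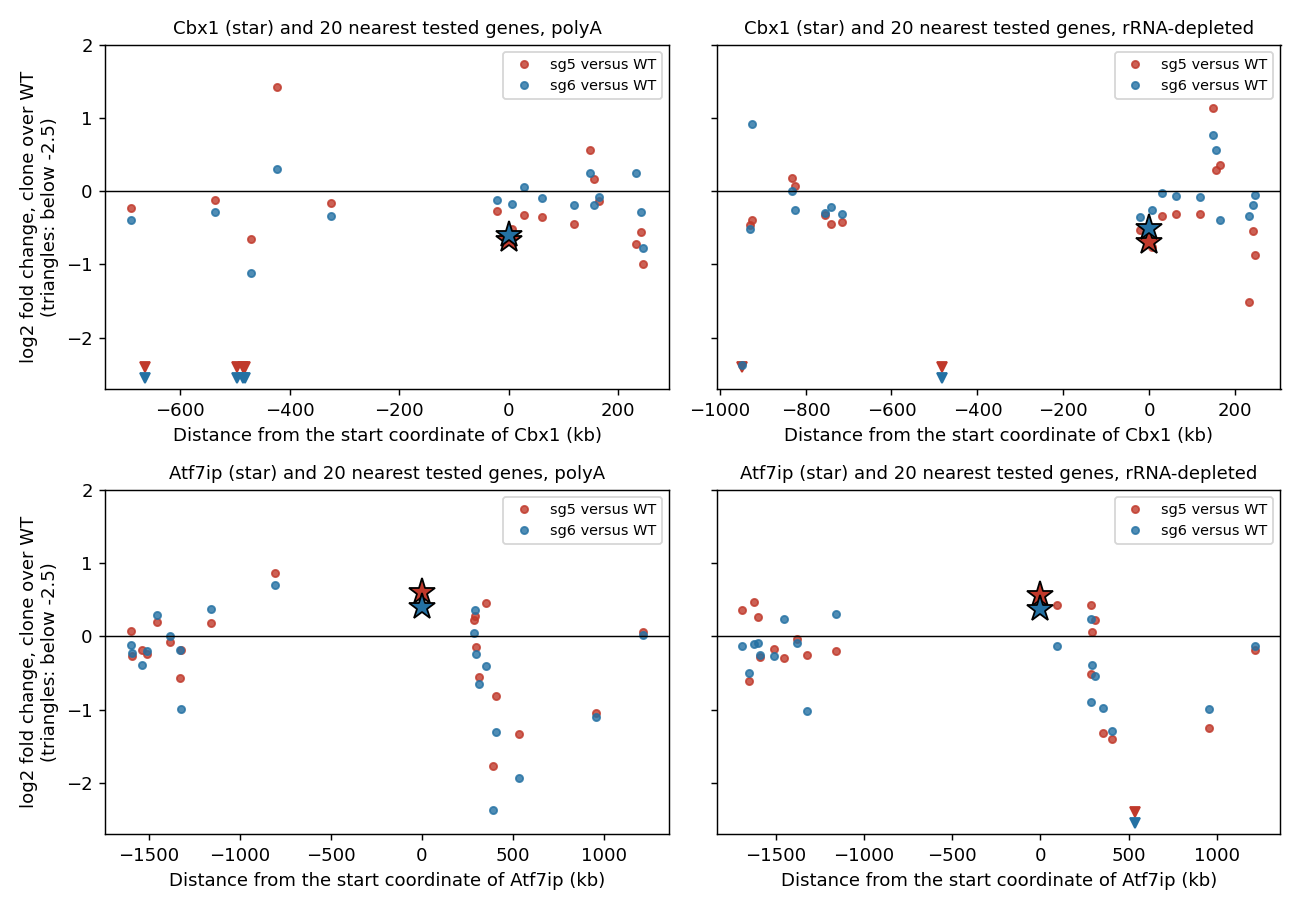
Log2 fold change in sg5 and sg6 over WT of Cbx1 (top) and Atf7ip (bottom), shown as stars at 0, and of the 20 nearest tested genes by distance between start coordinates in kb, in polyA (left) and rRNA-depleted (right) libraries. Triangles at the lower edge are genes below the plotted range. Most genes around Cbx1 lie below 0, and Atf7ip lies above 19 of its 20 neighbors in polyA and above all 20 in rRNA-depleted libraries.

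Cbx3, which encodes HP1γ, was lower in sg6 in polyA, at 156, 151 and 148 CPM against 193, 196 and 165 in WT. The sg5 libraries, at 164, 178 and 174 CPM, overlapped WT. The log2 fold change was −0.28 (SE 0.08, adjusted p = 0.0299) in sg6 and −0.10 (SE 0.08, 95% interval −0.29 to 0.09, adjusted p = 0.408) in sg5, and the difference between the clones did not pass. The sg6 call was lost in 6 of 9 fits without 1 library, those without WT replicate 1 or 2, sg5 replicate 3 or any sg6 replicate, with adjusted p from 0.0542 to 0.0959 and values from −0.31 to −0.24. It was also lost when the WT and sg6 libraries were fitted alone. Relative to the polyA median of chromosome 6, where Cbx3 lies, the gene was at −0.17 in sg6 and 0.0046 in sg5. In the rRNA-depleted libraries, Cbx3 was at −0.16 in sg5 and −0.26 in sg6 (95% interval −0.62 to 0.09, adjusted p = 0.577).

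Cbx5, which encodes HP1α, passed in no comparison. In polyA it measured 379, 365 and 286 CPM in WT, 265, 343 and 288 in sg5, and 329, 310 and 263 in sg6, so that both clones overlapped WT. The log2 fold change was −0.20 (95% interval −0.52 to 0.12) in sg5 and −0.19 (−0.51 to 0.13) in sg6. In the rRNA-depleted libraries it was −0.46 (−0.94 to 0.03) in sg5 and −0.06 (−0.54 to 0.42) in sg6, and single libraries of a line spread widely, from 210 to 375 CPM in sg5 and from 305 to 509 in sg6.

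The division of HP1 messages among the paralogs was described as the share of each gene in their summed CPM per kb. In polyA, Cbx1 made up 19.3% ± 2.42 (SD, n = 3) in WT, 14.1% ± 0.162 in sg5 and 15.7% ± 1.26 in sg6. Cbx3 made up 57.7% ± 0.824 in WT, 62.7% ± 1.55 in sg5 and 59.2% ± 1.21 in sg6, and Cbx5 23.0% ± 1.66, 23.2% ± 1.67 and 25.1% ± 1.88. In rRNA-depleted libraries Cbx1 made up 27.6% ± 0.896 in WT, 22.0% ± 2.39 in sg5 and 23.7% ± 3.71 in sg6, where 1 sg6 library, at 27.8%, lay within the WT range. Cbx3 made up 47.8% ± 1.45, 55.3% ± 1.44 and 48.1% ± 0.985. The Cbx1 share thus changed by −5.2 (sg5) and −3.56 (sg6) percentage points in polyA, and by −5.6 and −3.84 in rRNA-depleted libraries. Without division by length, the Cbx1 share in sg5 changed by −3.47 points in polyA and −2.87 in rRNA-depleted libraries. The Cbx3 share in sg5 then changed by 2.71 points in polyA in place of 4.94, and in sg6 its change turned in sign, from 1.44 to −0.31 in polyA and from 0.279 to −1.27 in rRNA-depleted libraries. An exact two-sided permutation test gave p = 0.1 for Cbx1 in 3 of these 4 comparisons and for Cbx3 in sg5 in both kinds, which is the smallest value that 3 libraries against 3 allow. The exact p was 0.2 for Cbx1 in sg6 rRNA-depleted libraries, and adjusted over all 12 shares compared none was below 0.24.

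**Figure D4:**
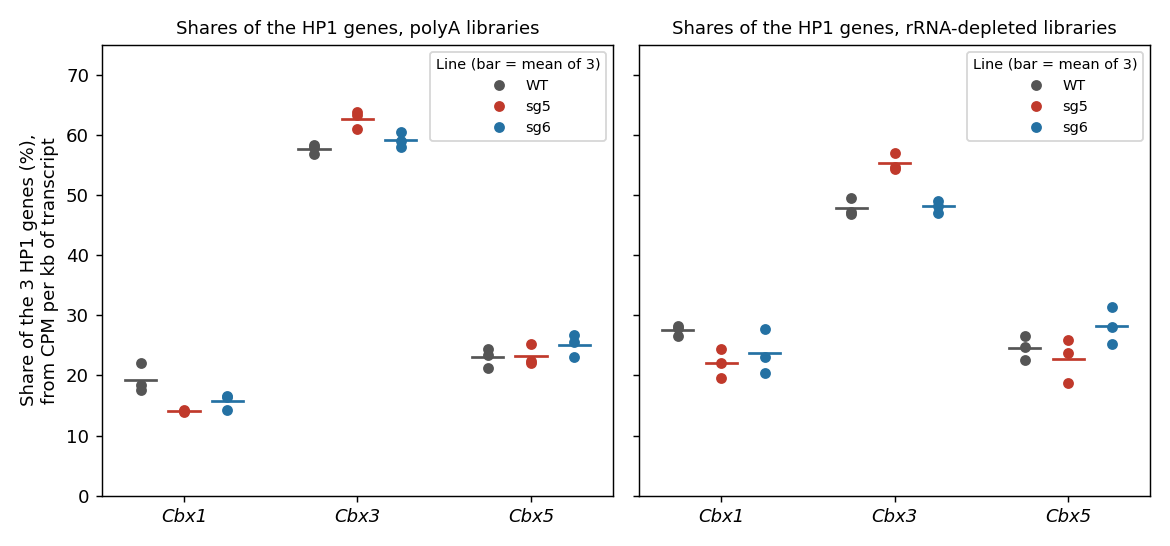
Share (%) of Cbx1, Cbx3 and Cbx5 in their summed CPM per kb of transcript, by library (points) with the mean of 3 libraries (bars), in polyA (left) and rRNA-depleted (right) libraries. On this length-divided scale Cbx3 holds the largest share in every library. The Cbx1 share is lower in sg5 and sg6 than in WT except for 1 sg6 rRNA-depleted library.

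Among the writers and cofactors of the set, Atf7ip, the partner of SETDB1, was the gene called higher, in polyA alone. In polyA it measured 61.5, 63.9 and 69.0 CPM in WT, 84.2, 102 and 111 in sg5, and 73.9, 88.0 and 94.9 in sg6. All libraries of both clones were above WT. The log2 fold change was 0.61 (SE 0.12, adjusted p = 0.00636) in sg5 and 0.40 (SE 0.12, adjusted p = 0.0356) in sg6. The sg5 call held in all 9 fits without 1 library (0.52 to 0.71). The sg6 call was lost without WT replicate 1 (adjusted p = 0.0770), WT replicate 2 (0.109), sg5 replicate 2 (0.0512), sg6 replicate 2 (0.0965) or sg6 replicate 3 (0.107), with values from 0.32 to 0.40.

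In the rRNA-depleted libraries, Atf7ip was measured at a lower level, 9.85, 13.1 and 12.0 CPM in WT, 13.1, 22.7 and 15.9 in sg5, and 15.9, 13.1 and 16.04 in sg6. The libraries of both clones again lay above WT, by a narrow margin for the lowest of them. The log2 fold change was 0.56 (95% interval 0.10 to 1.02, adjusted p = 0.192) in sg5 and 0.37 (−0.09 to 0.83, adjusted p = 0.538) in sg6, and passed in no alternative. Atf7ip lies on chromosome 6 (chr6:136506167-136610862 in mm10, plus strand), where its 20 neighbors had polyA medians of −0.16 in sg5 and −0.21 in sg6. Relative to them it was at 0.78 and 0.61, and at 0.76 and 0.63 in rRNA-depleted libraries.

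Setdb1, which encodes the enzyme that ATF7IP binds, passed in no comparison. It measured 68.9, 77.6 and 77.3 CPM in WT polyA libraries, 67.5, 77.4 and 77.3 in sg5, and 62.1, 68.9 and 70.3 in sg6. Its log2 fold change was −0.01 (95% interval −0.21 to 0.19, adjusted p = 0.948) in sg5 and −0.15 (−0.35 to 0.04, adjusted p = 0.222) in sg6. The rRNA-depleted values were −0.05 (−0.36 to 0.26) and −0.09 (−0.40 to 0.22). Whether Atf7ip differed from Setdb1 in its change was not tested.

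Trim28, the corepressor that recruits SETDB1, had the narrowest spread relative to its level among WT polyA libraries, at 225, 217 and 217 CPM. It measured 192, 228 and 222 CPM in sg5 and 216, 216 and 208 in sg6. The polyA log2 fold changes were −0.04 (95% interval −0.22 to 0.14) in sg5 and −0.04 (−0.22 to 0.14) in sg6. In rRNA-depleted libraries the values were 0.07 (−0.34 to 0.47) and −0.08 (−0.49 to 0.32), with single sg5 libraries from 123 to 213 CPM.

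The G9a and GLP genes also passed in no comparison. Ehmt1 was at 75.3, 74.1 and 84.9 CPM in WT polyA libraries, 83.5, 88.0 and 86.7 in sg5, and 78.1, 88.4 and 87.0 in sg6. The change of Ehmt1 was 0.14 (95% interval −0.04 to 0.32) and 0.11 (−0.07 to 0.29) in polyA, and 0.23 (−0.05 to 0.52) and 0.11 (−0.18 to 0.40) in rRNA-depleted libraries, where all knockout libraries were above WT. Chromosome 2, where Ehmt1 lies, had polyA medians of 0.19 in sg5 and 0.13 in sg6, and rRNA-depleted medians of 0.28 and 0.15, each above the Ehmt1 value beside it. Ehmt2 was at 181, 174 and 218 CPM in WT polyA libraries, 153, 167 and 173 in sg5, and 174, 195 and 182 in sg6. The sg5 libraries lay below WT in both kinds, at −0.22 (−0.44 to 0.01, adjusted p = 0.142) in polyA and −0.15 (−0.42 to 0.12, adjusted p = 0.612) in rRNA-depleted libraries.

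Suv39h1 and Suv39h2, the enzymes of the repeats beside centromeres, varied most among the polyA libraries of each line relative to their level. Suv39h1 measured 43.1, 43.5 and 25.2 CPM in WT polyA libraries, 27.3, 44.0 and 35.4 in sg5, and 30.97, 30.3 and 23.3 in sg6. Suv39h2 measured 8.91, 10.4 and 4.60 CPM in WT, 6.88, 11.4 and 8.86 in sg5, and 7.34, 7.23 and 5.72 in sg6. Both were lowest among WT in replicate 3 and lowest among sg5 in replicate 1. The polyA log2 fold changes of Suv39h1 were −0.07 (95% interval −0.60 to 0.46) in sg5 and −0.40 (−0.94 to 0.13, adjusted p = 0.234) in sg6. Without WT replicate 3, the sg6 value of Suv39h1 was −0.62 with an adjusted p of 0.0452, so that the absence of a call rested on that library. For Suv39h2 they were 0.18 (−0.48 to 0.83) and −0.24 (−0.90 to 0.42).

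In rRNA-depleted libraries, Suv39h1 measured 43.1, 49.8 and 38.8 CPM in WT, 17.9, 39.9 and 38.6 in sg5, and 24.7, 46.9 and 28.7 in sg6. Suv39h2 measured 21.8, 24.0 and 15.7 CPM in WT, 9.77, 15.3 and 14.5 in sg5, and 12.7, 21.5 and 12.2 in sg6. The sg5 libraries of Suv39h2 all lay below WT. The log2 fold changes were −0.45 (−1.07 to 0.17) and −0.39 (−1.01 to 0.23) for Suv39h1. For Suv39h2 they were −0.64 (−1.19 to −0.09, adjusted p = 0.219) and −0.40 (−0.95 to 0.14, adjusted p = 0.591). Over both genes and both clones, these intervals reached from −1.19 to 0.23. Suv39h2 lies on chromosome 2. Relative to the median of that chromosome it was at −0.92 in sg5 and −0.56 in sg6, and in polyA at −0.01 and −0.37. The part of the chromosome in these values was not tested.

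The libraries in which Suv39h1, Suv39h2 and Cbx5 were low were also low in genes of DNA replication and mitosis. The summed level of 16 such proliferation genes was 3241, 2760 and 1370 CPM in WT polyA libraries, 2093, 3150 and 2366 in sg5, and 2470, 2130 and 1368 in sg6. In rRNA-depleted libraries the sums were 3862, 3941 and 2926 CPM in WT, 1488, 3171 and 2824 in sg5, and 2483, 3844 and 2417 in sg6. WT replicate 3 in polyA and sg5 replicate 1 in rRNA-depleted libraries were lowest of their line in the sum and in all of these 3 genes. None of the 16 passed in polyA, beside 27% (sg5) and 30.7% (sg6) of all genes. In rRNA-depleted libraries 1 passed, lower in sg5, beside 10.7% of genes, and it was Top2a, a topoisomerase of dividing cells, named after its value was seen. The part of proliferation in the values of these 3 genes was not tested.

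**Figure D5:**
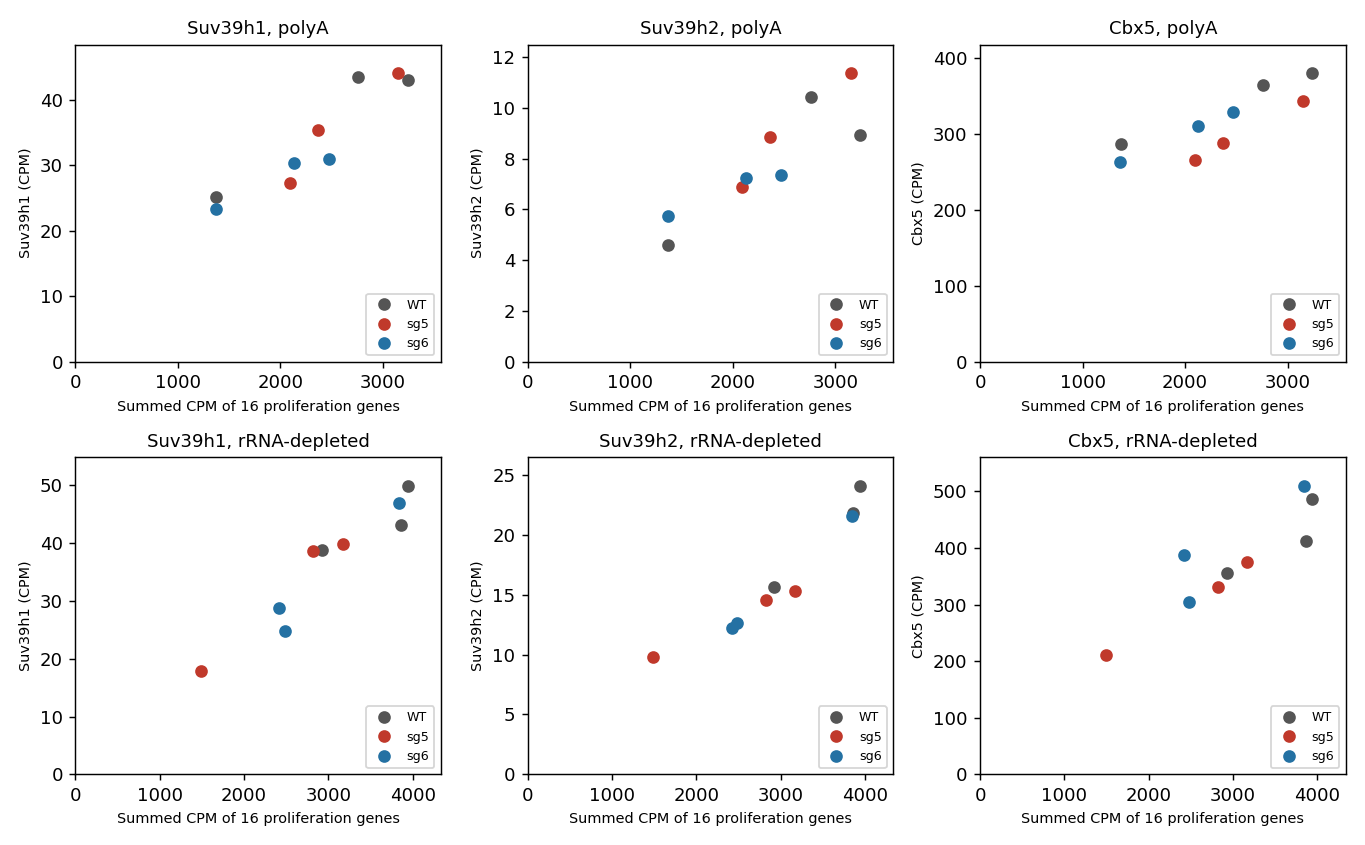
Level of Suv39h1, Suv39h2 and Cbx5 (CPM, vertical axes) against the summed CPM of 16 proliferation genes (horizontal axes) in each polyA (top) and rRNA-depleted (bottom) library. Points are libraries and colors mark the line. Libraries with low sums, such as 1 of WT at 1370 CPM in polyA and 1 of sg5 at 1488 CPM in rRNA-depleted libraries, hold low values of the 3 genes.

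The rest of the pathway was read from lists of 11 H3K9 demethylases, 11 other writers and partners, and 8 HP1-binding proteins, of which 29 genes were tested in polyA and 27 in rRNA-depleted libraries. In polyA, 5 of 29 were higher and 2 lower in sg5, and 4 were higher and 3 lower in sg6, beside the 27% and 30.7% of all genes given above. Their median log2 fold change was 0.02 in sg5 and −0.16 in sg6. Among demethylases, 1 of 11 was higher in sg5, and 1 higher and 1 lower in sg6. Of the other writers and partners, 4 of 10 tested were higher in sg5, and 2 higher and 1 lower in sg6. Of the HP1-binding proteins, 2 of 8 were lower in sg5, and 1 was higher and 1 lower in sg6. Of the 27 in rRNA-depleted libraries, none passed in sg5 and 1 passed in sg6, beside 10.7% and 7.58% of genes. No listed gene passed in both clones in both kinds of library.

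In polyA, 4 of the 29 listed genes (13.8%) passed in both clones in the same direction, beside 20.2% of all genes, and they are named here after their values were seen. Cdyl, which encodes a chromodomain corepressor that binds methylated H3K9, rose by 0.71 (SE 0.15, adjusted p = 0.00744) in sg5 and 1.16 (SE 0.15, adjusted p = 0.000527) in sg6, and in rRNA-depleted libraries was at 0.57 (adjusted p = 0.0829) and 0.93 (adjusted p = 0.00685). Prdm2, a methyltransferase of the PRDM family, rose by 0.28 in both clones (adjusted p = 0.00993 and 0.00859). Kdm3b, a demethylase of mono- and dimethyl H3K9, rose by 0.30 (adjusted p = 0.0249) and 0.26 (adjusted p = 0.0427). Adnp, whose protein binds HP1 and the remodeler CHD4, fell by 0.42 (adjusted p = 0.0191) and 0.44 (adjusted p = 0.0139). Its rRNA-depleted values were 0.20 in sg5 and −0.18 in sg6, neither of which passed. The values of these 4 genes were not set against the medians of their chromosomes. Such medians reached 0.40 in sg5 (chromosome 18) and 0.36 in sg6 (chromosome 12) in polyA.

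Between the clones, none of the 10 genes passed in either kind of library, where 4.79% of genes in polyA and 1.57% in rRNA-depleted libraries did, and none had an unadjusted p below 0.05 in edgeR. DESeq2 called none either. The log2 fold changes of sg5 over sg6 ran from −0.16 to 0.42 in polyA and from −0.39 to 0.19 in rRNA-depleted libraries, and their 95% intervals reached from −0.38 to 1.07 and from −0.87 to 0.65. The polyA interval was narrow for Cbx1 (−0.23 to 0.12) and Trim28 (−0.17 to 0.19), so that the limit on a difference between the clones varied from gene to gene.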

How the data were processed

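The 10 genes and the gene lists were chosen with earlier results of these data known. For polyA libraries, per the study's methods, the authors quantified reads with Salmon and tximport on the UCSC known genes of mm10 and deposited estimated counts per gene, which are whole numbers. For rRNA-depleted libraries, the authors aligned reads to mm10 with STAR and deposited TElocal read counts of genes and TE loci. Salmon is given as version 0.8.2 and STAR as 2.27.10a in the submitters' processing notes.

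Counts were tested with edgeR 4.0.16 (filterByExpr with a minimum count of 10, TMM, quasi-likelihood test, all 9 libraries of a kind in 1 fit, no replicate block), with Benjamini-Hochberg adjustment over all features tested. CPM are TMM-scaled. Intervals are the estimate and its SE times the 95% t quantile. Chromosomes came from RefSeq (GRCm38.p6), which matched 24045 of 24100 identifiers, and transcript sequences, lengths and 31-base words from the GRCm38 annotation. The fits were tested on simulated counts, in sg5 versus WT. The polyA fit found 17 of 67 changes set at a log2 fold change of 0.585 in size, 42 of 67 at 1 and 62 of 66 at 2. The rRNA-depleted fit found 0 of 67, 5 of 67 and 30 of 66. False calls numbered 10 in polyA and 5 in rRNA-depleted libraries. The 200 changed features were drawn at random from all features tested, TE loci included in rRNA-depleted libraries. Their recovery is therefore not that of any of the 10 genes. For a gene that did not pass, its 95% interval gives the limit on its change. No 2 libraries were identical. The rule for named genes took the 10, Atrx, and listed genes changed in both clones in both kinds, of which there were 0. Overlapping transcripts, markers, and the list genes Cdyl, Prdm2, Kdm3b, Adnp and Top2a were named after their values were seen. DESeq2 1.42.0 and the other settings are given in the closing section.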

Additional observations from a re-analysis of the deposited data

How the results depend on the processing

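Counts of changed genes in polyA for sg5, and for sg5 against sg6 in both kinds, stayed within 1.5 times the reported count under every alternative run, and thinning all libraries to the smallest one changed no call and no sign of the 10 genes. The count of changed genes in sg6 for rRNA-depleted libraries, and with it the count in both clones, went from 0 to 1 (Cbx1) with no filter on low counts, with 10 counts in every library, with genes alone and with the replicate block. The fit with no filter also held genes without TE loci. Fewer features were thus tested with it, with 10 counts in every library and with genes alone, and the cause was otherwise not tested. With 1 library left out, the count ranged from 1 to 4 in sg6 and from 1 to 2 in both clones for polyA, and from 0 to 1 in sg5 for rRNA-depleted libraries.

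Adding a replicate block to the fit changed 1 call (Cbx1 in sg6, rRNA-depleted, −0.51, adjusted p = 0.0350) of the 40 gene values. The numbers were not taken as a pairing in the main fits, because the study names no replicate block. Same-numbered libraries of different lines had correlations of their deviations from the line means from 0.026 to 0.43 (mean 0.26) in polyA. In rRNA-depleted libraries these ran from −0.23 to 0.64 (mean 0.29), and 7 (polyA) and 8 (rRNA-depleted) of 9 pairs were over 0.1. Differently numbered ones averaged −0.13 and −0.14, values that centering on the line means ties to those of the same-numbered ones. All 3 pairs were over 0.1 for WT and sg6 in rRNA-depleted libraries (0.11 to 0.54). The same held for sg5 and sg6 in polyA (0.28 to 0.37) and in rRNA-depleted libraries (0.17 to 0.64). Whether same-numbered libraries were handled together was not tested. In polyA 6 of 9 and in rRNA-depleted 5 of 9 libraries correlated best with their own number.

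The sign changed only for values that passed in no fit. With all libraries these were near 0, except for Suv39h2 in polyA (0.18 in sg5 and −0.24 in sg6). Setdb1 in sg5 was 0.0038 with no filter in polyA, and 0.0016 with DESeq2 and 0.0017 with median-of-ratios size factors in rRNA-depleted libraries. Trim28 in sg5 was −0.0047, −0.012 and −0.0036 in rRNA-depleted libraries with no filter, 10 counts in every library and genes alone. With 1 library left out, the polyA ranges that cross 0 were −0.061 to 0.048 (Setdb1, sg5), −0.082 to 0.034 (Trim28, sg5), −0.28 to 0.086 (Suv39h1, sg5), −0.10 to 0.42 and −0.52 to 0.0036 (Suv39h2, sg5 and sg6) and −0.13 to 0.050 (Ehmt2, sg6). The rRNA-depleted ranges were −0.11 to 0.038 (Setdb1, sg5), −0.10 to 0.28 and −0.19 to 0.021 (Trim28, sg5 and sg6) and −0.26 to 0.13 (Cbx5, sg6). HP1 shares from CPM without division by length differed by −3.47 (polyA) and −2.87 (rRNA-depleted) points for Cbx1 in sg5, by 2.71 and 5.1 points for Cbx3 in sg5, and by −0.31 and −1.27 points for Cbx3 in sg6, where the sign turned. The comparison with 20 neighbors was chosen after seeing the data.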
